A study of Mus musculus with 12 samples.

Results

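The nuclear genes for the subunits of oxidative phosphorylation were followed in macrophages of the mouse aorta and of fat. Members were taken by symbol among protein-coding genes: Nduf followed by a, b, c, s or v and a digit, Sdha to Sdhd, symbols that start with Uqcr, Cox4 to Cox8, and symbols that start with Atp5. The rule gave 84 of the 46517 genes in the count table, after 10 pseudogenes and other biotypes were left out. By symbol, 37 members belong to complex I, 4 to complex II, 8 to complex III, 18 to complex IV and 17 to complex V. A filter on low counts kept 79 members among the 14216 genes tested.

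The cells came from adult wild-type C57/BL6 mice, and the sort in every group kept DAPI- cells that carried CD45, CD64, F4/80, CD11b and MerTK. A further gate on LYVE-1, which binds hyaluronan, split them into LYVE1+ and LYVE1- macrophages. There were 4 groups of 3 libraries each: aorta LYVE1+, aorta LYVE1-, fat LYVE1+ and fat LYVE1-. The aortas of 30 mice and the epididymal and subcutaneous fat of 20 mice were used. The labels name no transgene or treatment. Whether replicates were separate pools of mice is not stated, and p-values thus measure only the spread between these libraries, which may be technical. Each library was made from 2 ng of total RNA by Smart-seq2, a full-length protocol that does not mark the strand, and read with 51 cycles from each end.

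Oxidative phosphorylation takes place in the inner mitochondrial membrane. Complex I (NADH dehydrogenase) and complex II (succinate dehydrogenase) pass electrons to ubiquinone, complex III passes them to cytochrome c, and complex IV (cytochrome c oxidase) passes them to oxygen, while complex V (ATP synthase) uses the proton gradient to make ATP. Most subunits are encoded in the nucleus and imported, and a small set of membrane-embedded subunits of complexes I, III, IV and V is encoded by the mitochondrial genome. Macrophages shift between this pathway and glycolysis with their activation state.

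Depth ranged from 5049936 to 29792301 counts per library. Library 1 of fat LYVE1+ and library 1 of fat LYVE1- stood apart. RNA of the mitochondrial genome made up 8.85% and 12.1% of counts there and 1.79% to 3.20% in the other 10 libraries. Their 5 erythroid marker genes summed to 25920 and 5271 CPM (counts scaled to library size), against 1.88 to 1393 CPM elsewhere. Library titles start with RMM (all fat libraries and aorta LYVE1+ libraries 1 and 2) or RHH (aorta LYVE1+ library 3 and all aorta LYVE1- libraries), and the labels do not say what the prefixes stand for. They also name a separate sequencing run for 1 sample without saying which. The 6 macrophage genes of the sort (Ptprc, Fcgr1, Mertk, Itgam, Adgre1 and Csf1r) were counted in all libraries. Lyve1 itself was at 2041 to 2803 CPM in aorta LYVE1+ and 867 to 1321 CPM in aorta LYVE1- libraries. In fat it was at 1495 to 2190 CPM in LYVE1+ and 230 to 610 CPM in LYVE1- libraries. Counts, medians and sum ratios that use the fat libraries 1 are also given without them where these moved.

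Promoter sequences are shown for 3 members on which the results below turn: Uqcr11, whose level followed the other subunits most closely, Cox6a1, an abundant complex IV subunit, and Cox5a, a complex IV subunit called different between the sorts. They are the 250 bases before the start in RefSeq's GRCm38.p6 annotation, 5′ to 3′ on the strand of the gene, at chr10:80406822-80407071 (minus strand), chr5:115348959-115349208 (minus strand) and chr9:57520982-57521231 (plus strand). Capitals mark exact matches to letters bound by factors known to control these genes.
Uqcr11: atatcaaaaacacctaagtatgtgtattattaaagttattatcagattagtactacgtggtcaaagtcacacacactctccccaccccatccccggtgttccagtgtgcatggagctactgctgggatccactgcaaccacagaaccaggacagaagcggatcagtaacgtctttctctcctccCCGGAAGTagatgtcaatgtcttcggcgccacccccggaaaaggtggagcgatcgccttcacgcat
Cox6a1: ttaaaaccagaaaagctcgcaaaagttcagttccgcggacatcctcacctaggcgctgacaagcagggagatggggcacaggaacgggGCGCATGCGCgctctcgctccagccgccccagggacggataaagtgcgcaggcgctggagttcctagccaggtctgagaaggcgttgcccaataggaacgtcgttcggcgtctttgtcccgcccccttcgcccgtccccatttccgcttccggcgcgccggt
Cox5a: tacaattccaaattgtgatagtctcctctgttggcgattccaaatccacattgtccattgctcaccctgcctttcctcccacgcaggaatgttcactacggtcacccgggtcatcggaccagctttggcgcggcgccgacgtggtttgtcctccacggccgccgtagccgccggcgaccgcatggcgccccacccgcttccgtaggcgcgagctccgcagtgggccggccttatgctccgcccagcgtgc
The capitals in Uqcr11 are CCGGAAGT, the letters of the ETS factor GABPA, which lie 66 to 59 bases before the start. Those in Cox6a1 are GCGCATGCG, the letters of NRF1, which read on from 162 to 154 bases before the start, and again on the other strand 1 base further on, so that the matches overlap. Cox5a held neither of these, nor AAGATGGCG, the letters of YY1, on either strand of the bases shown.

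A promoter window of 300 bases, 250 before and 50 after the start, was found for 68 of the 84 members and gave 73 windows. The 3 motifs do not overlap in their letters, although NRF1's letters nearly mirror themselves. NRF1's were in 8 of the 73 windows (10.96%, 95% Wilson interval 5.66 to 20.2), against 1.75% of all 32851 windows. Its members were Atp5g2, Atp5k, Atp5l, Cox6a1, Ndufa11, Ndufa8, Uqcr11 and Uqcrc1. YY1's letters were in 7 windows (9.59%, 4.72 to 18.5), against 1.40% of all, in Atp5j, Atp5j2, Ndufa9, Ndufc1, Ndufs4, Ndufs6 and Ndufs7. With only the bases before the start, YY1's remained in 1 window (1.37%, 0.242 to 7.36), that of Atp5j, against 0.606% of all windows. GABPA's letters were in 5 windows (6.85%, 2.96 to 15.1), against 3.89% of all, in Atp5h, Cox8a, Ndufs3, Uqcr11 and Uqcrh. At least 1 of the 3 motifs was in 26% of the members' windows and in 6.69% of all windows. These are counts of letters and say nothing on binding in these cells.

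Levels of different genes were compared per length, as CPM per kilobase of the principal transcript (RPKM), averaged over the 12 libraries. Cox4i1, the common form of a regulatory subunit of complex IV, was highest at 380 RPKM, followed by the catalytic beta subunit of ATP synthase, Atp5b, at 289 RPKM. Cox6a1 of complex IV was at 284 RPKM. In complex III the small subunit Uqcr11 was at 180 RPKM and the core protein Uqcrc1 at 172 RPKM. Atp5a1, the alpha subunit of ATP synthase, was at 164 RPKM. In complex I by symbol, Ndufa4 was at 189 RPKM and the accessory subunit Ndufb8 at 157 RPKM; Ndufa4 is known today as a subunit of complex IV. The flavoprotein Sdha and the iron-sulfur protein Sdhb of complex II were at 109 and 106 RPKM. These ranks depend on the length used. With the length of all exons together, an alternative added after seeing the data, Ndufa4 went from rank 6 to rank 21 of 84 and Ndufb8 from rank 12 to rank 46, while Cox6a1 went to rank 1 and Cox4i1 to rank 4.

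The mean share of each complex in the members' summed level per length was similar in the 4 groups, but some shares did not overlap between libraries. Complex I took 33.8% ± 0.806 (SD, n = 3) in aorta LYVE1+, 32.4% ± 1.04 in aorta LYVE1-, 34.8% ± 1.47 in fat LYVE1+ and 33.5% ± 0.965 in fat LYVE1-. Complex V took 23.0% ± 0.773, 24.5% ± 1.13, 23.7% ± 1.40 and 25.1% ± 1.95 in the same order. Mean shares were 4.48% to 4.57% for complex II, 13.2% to 13.8% for complex III and 23.6% to 25.3% for complex IV. These shares are by symbol, with Ndufa4 in complex I. In the aorta the share of complex I was higher in LYVE1+ libraries (33.1% to 34.7%) than in LYVE1- libraries (31.2% to 33.0%), without overlap. The shares of complex V (22.2% to 23.6% against 23.8% to 25.8%) and of complex IV (24.3% to 25.1% against 25.2% to 25.4%) were lower there, also without overlap. The complex I ranges were barely apart (33.07% against 33.01%). With Ndufa4 counted in complex IV instead, the shares of complexes I and IV overlap between the aortic sorts. Those of complexes II and III overlapped in the aorta, and in fat the shares of all 5 complexes overlapped. Between all aortic and all fat libraries, the share of complex IV was apart (24.3% to 25.4% against 23.3% to 24.0%), and the other shares overlapped.

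Tissue-restricted or stress-linked isoforms were low beside their common partners. Over the 12 libraries, Cox4i2, a lung and hypoxia isoform, had 52 counts and made up 0.106% of the summed level of Cox4i1 and Cox4i2. The heart and muscle isoforms Cox6a2, Cox7a1 and Cox8b made up 0.734% of the pair with Cox6a1, 4.69% of the pair with Cox7a2 and 0.278% of the pair with Cox8a. Testis isoforms were also rare: Cox6b2 made up 1.22% of the pair with Cox6b1, Cox7b2 0.105% with Cox7b, and Cox8c 0.0738% with Cox8a. Ndufa4l2, a hypoxia-induced relative of Ndufa4, made up 0.369%, with 117 counts in all. The 5 members that did not pass the filter on low counts were Ndufa4l2, Cox4i2, Cox7b2, Cox8b and Cox8c. Cox7a2l, a relative of Cox7a2 that acts in supercomplexes, stood at 50.4% of the pair with Cox7a2. Of the 3 genes for the c subunit of the ATP synthase rotor, Atp5g1 gave 45.2% to 51.2% of the summed level by group, Atp5g3 32.9% to 37.9% and Atp5g2 14.7% to 17.5%. These 3 encode the same mature protein, and members with close copies or pseudogenes are uncertain to the extent that reads were shared among copies.

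In the aorta, subunit transcripts had higher levels in LYVE1+ cells than in LYVE1- cells, in small steps and in all 5 complexes. The 84 members summed to 7182, 6855 and 6750 CPM (scaled by TMM, a normalization for library composition) in the 3 LYVE1+ libraries and to 5357, 5954 and 6093 CPM in the 3 LYVE1- libraries. These ranges were apart, and the ratio of their means was 1.19. In these bulk samples, more cells with such transcripts and more such RNA per cell cannot be told apart.

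**Figure D1:**
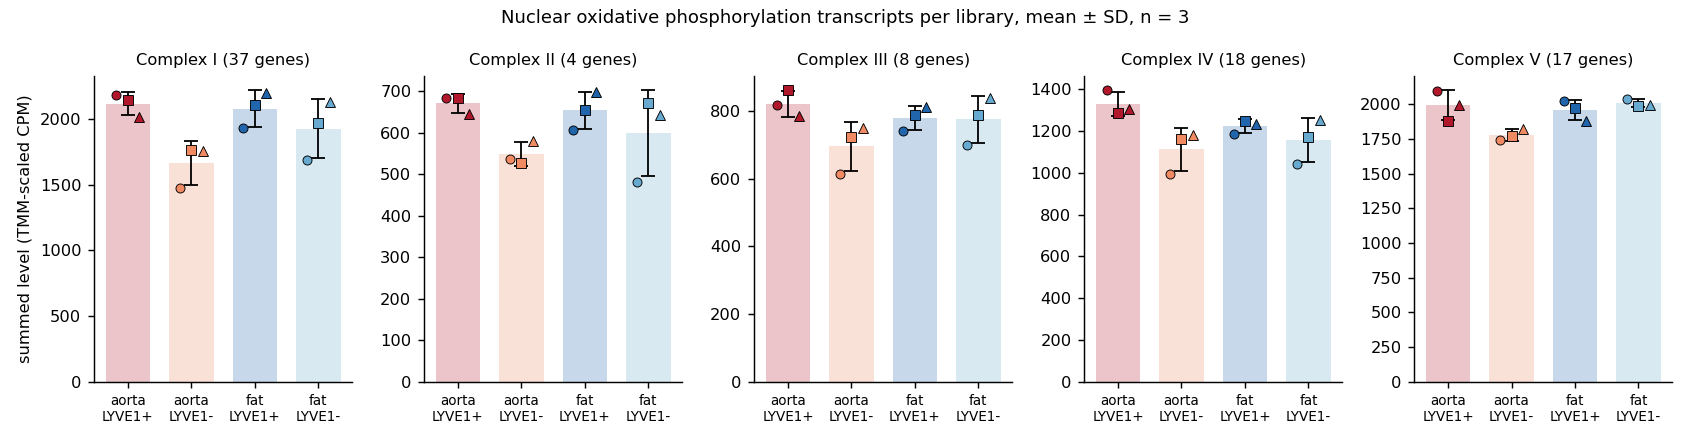
Summed level (TMM-scaled CPM, y axis from 0) of the members of each complex in the 4 groups (x axis). Circles, squares and triangles are libraries 1, 2 and 3, bars are means and whiskers the SD of 3 libraries. In every complex the 3 aorta LYVE1- libraries lie below the 3 aorta LYVE1+ libraries, while the fat groups overlap.

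Fitted log2 fold changes were above 0 for 75 of the 79 members tested (94.9%), with a median of 0.30, while over all 14216 genes 48.6% were above 0 and the median was -0.01. The medians were 0.35 for the 36 members of complex I tested, 0.36 for the 4 of complex II, 0.25 for the 8 of complex III, 0.27 for the 14 of complex IV and 0.17 for the 17 of complex V. Within complex I, the 7 conserved core subunits had a median of 0.30 and the 29 accessory subunits one of 0.36. The values of the 3 LYVE1+ libraries all lay above those of the 3 LYVE1- libraries for 43 members, and all below for 1. Together that was 55.7% of the members tested, against 22.4% of all genes. By complex, the 43 were 21 in complex I, all 4 in complex II, 4 in complex III, 8 in complex IV and 6 in complex V.

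Few of these differences passed a test corrected over all genes. With edgeR's quasi-likelihood test at an adjusted p below 0.05, 1 member was called, the complex I subunit Ndufb9, against 0.542% of all genes. DESeq2 called 4 members, Ndufb9, Ndufs7, Ndufv1 and Uqcrq, against 2.53% of all genes. At an unadjusted p below 0.05, edgeR gave 27 members (34.2%), all higher in LYVE1+ cells, against 11.3% of all genes. That count was 12 without aorta LYVE1- library 1, against 6.91% of all genes, and 17 without aorta LYVE1+ library 1, against 7.82%. Without both fat libraries 1, which are not part of this comparison but share its estimate of the spread, 3 members were called (Ndufb8, Ndufb9 and Uqcrq), against 4.01% of all genes.

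**Figure D2:**
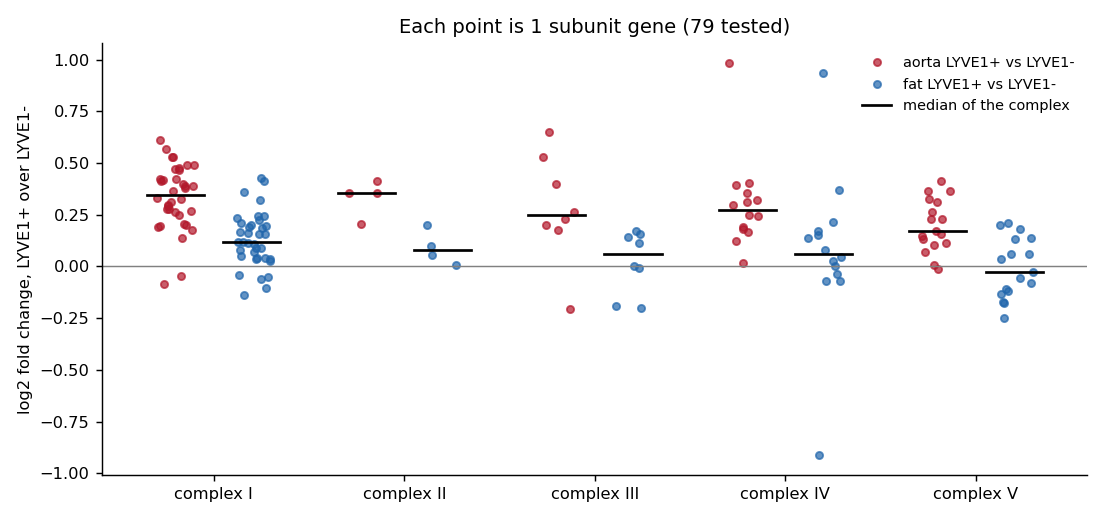
Log2 fold change of LYVE1+ over LYVE1- cells (y axis) for each of the 79 members tested, by complex (x axis), in the aorta (red) and in fat (blue). Black lines are the medians of the complex. Aortic points lie mostly above 0 in each complex, and in fat the median of complex V lies just below 0.

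The prefix of the library titles runs partly along this comparison. Within the RHH prefix only aorta LYVE1+ library 3 can be set against the 3 LYVE1- libraries. Its value was above all 3 of them for 55 of the 79 members (69.6%), against 28% of all genes, and below all 3 for 4. Its summed level was 1.16 times their mean. With the prefix as a term in the model, its effect was set by aorta LYVE1+ library 3 against libraries 1 and 2. The aortic comparison then again rests on library 3 against the 3 LYVE1- libraries and is not a separate check. In that fit 70 members had fitted values above 0 and the median was 0.27. No member was then called by edgeR, against 0.0141% of all genes, and 6 had an unadjusted p below 0.05, against 5.78%. Markers of other cells also differed. The 6 mast cell markers summed to 1.84 to 12.7 CPM in the LYVE1+ libraries and 46.1 to 79.9 CPM in the LYVE1- libraries, and the 5 eosinophil markers to 1.20 to 3.75 and 10.5 to 27.9 CPM, with no marker of either list at 0 in all libraries. Each mast cell marker was lower in the LYVE1+ libraries without overlap. Of the eosinophil markers only Epx and Prg2 were, both at 0 CPM in the LYVE1+ libraries, and Siglecf, Ccr3 and Ear6 overlapped. The 6 macrophage genes summed to 9440 to 9758 CPM in the LYVE1+ libraries and to 8240 to 8812 CPM in the LYVE1- libraries. Most of each sum was Csf1r, at 6419 to 6660 against 5140 to 5993 CPM. Csf1r and Itgam were higher in the LYVE1+ libraries without overlap. Ptprc was lower there without overlap (455 to 491 against 559 to 912 CPM), and Fcgr1, Mertk and Adgre1 overlapped. The part of these differences in the result was not tested.

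Ndufb9, an accessory subunit of the membrane arm of complex I, lies at chr15:58933756-58939488 on the plus strand (GRCm38). It stood at 66.2, 64.3 and 72.5 CPM in aorta LYVE1+ libraries 1 to 3 and at 42.5, 45.9 and 44.5 CPM in aorta LYVE1- libraries 1 to 3. The groups were apart, with little spread within each. The log2 fold change was 0.61 (SE 0.12), or 1.53-fold, with an adjusted p of 0.0459 by edgeR. That call ended without any 1 of the 6 aortic libraries, or without library 2 or 3 of either fat group, with adjusted p-values from 0.0582 to 0.207. It also ended with the prefix in the model (0.35) or with no filter on low counts (0.076). Over all alternatives the fold change kept its direction and the adjusted p ranged from 0.000234 to 0.35. In fat, Ndufb9 stood at 63.4, 75.0 and 71.0 CPM in LYVE1+ libraries and 58.0, 62.4 and 60.7 CPM in LYVE1- libraries, again without overlap (log2 fold change 0.21, adjusted p = 0.454 by edgeR). The annotation lists Gm49356 over Ndufb9 on the same strand, so reads of shared exons cannot be assigned to either with certainty.

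Several members of complexes I and III showed the aortic pattern without passing edgeR's threshold. Ndufs7, a core subunit that holds an iron-sulfur cluster on the way to ubiquinone, stood at 94.1, 87.8 and 103.7 CPM against 50.4, 75.1 and 67.3 CPM (log2 fold change 0.57, SE 0.16, adjusted p = 0.166 by edgeR). Ndufv1, the core subunit that binds NADH, stood at 68.5, 80.9 and 77.0 CPM against 47.4, 59.6 and 54.2 CPM (0.49, SE 0.14, adjusted p = 0.167 by edgeR). Uqcrq, a small subunit of complex III, stood at 63.7, 55.2 and 54.9 CPM against 37.3, 45.1 and 37.9 CPM (0.53, SE 0.14, adjusted p = 0.16 by edgeR). In each of these genes all LYVE1+ values lay above all LYVE1- values. These were named because DESeq2 called them. Uqcr11 stood at 92.8, 104.9 and 92.4 CPM against 42.3, 75.1 and 67.3 CPM, with LYVE1- library 1 lowest of the 12 (log2 fold change 0.65, SE 0.20, adjusted p = 0.221 by edgeR). Cox4i1, the most abundant member, stood at 315.8, 295.8 and 316.9 CPM against 224.9, 283.9 and 275.1 CPM (0.24, SE 0.14, adjusted p = 0.546 by edgeR).

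Uqcrfs1, the Rieske iron-sulfur protein of complex III, went against the rest, and was singled out after its values were seen. It stood at 65.9, 76.9 and 69.3 CPM in the aorta LYVE1+ libraries and at 83.9, 78.3 and 82.3 CPM in the aorta LYVE1- libraries. In fat it stood at 67.3, 72.6 and 70.4 CPM in the LYVE1+ libraries and at 81.7, 79.7 and 80.5 CPM in the LYVE1- libraries. It was thus lower in LYVE1+ cells without overlap in both tissues, and its log2 fold changes were -0.21 (SE 0.11, adjusted p = 0.527 by edgeR) in the aorta and -0.20 (SE 0.11, adjusted p = 0.443) in fat. Their average, -0.20 (SE 0.080), was not called either (adjusted p = 0.164 by edgeR, 0.0904 to 0.512 over the alternatives). The other members with fitted values below 0 in the aorta were Ndufa6 (-0.08), Ndufc2 (-0.05) and Atp5s (-0.01), the last a coupling factor of the synthase.

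**Figure D3:**
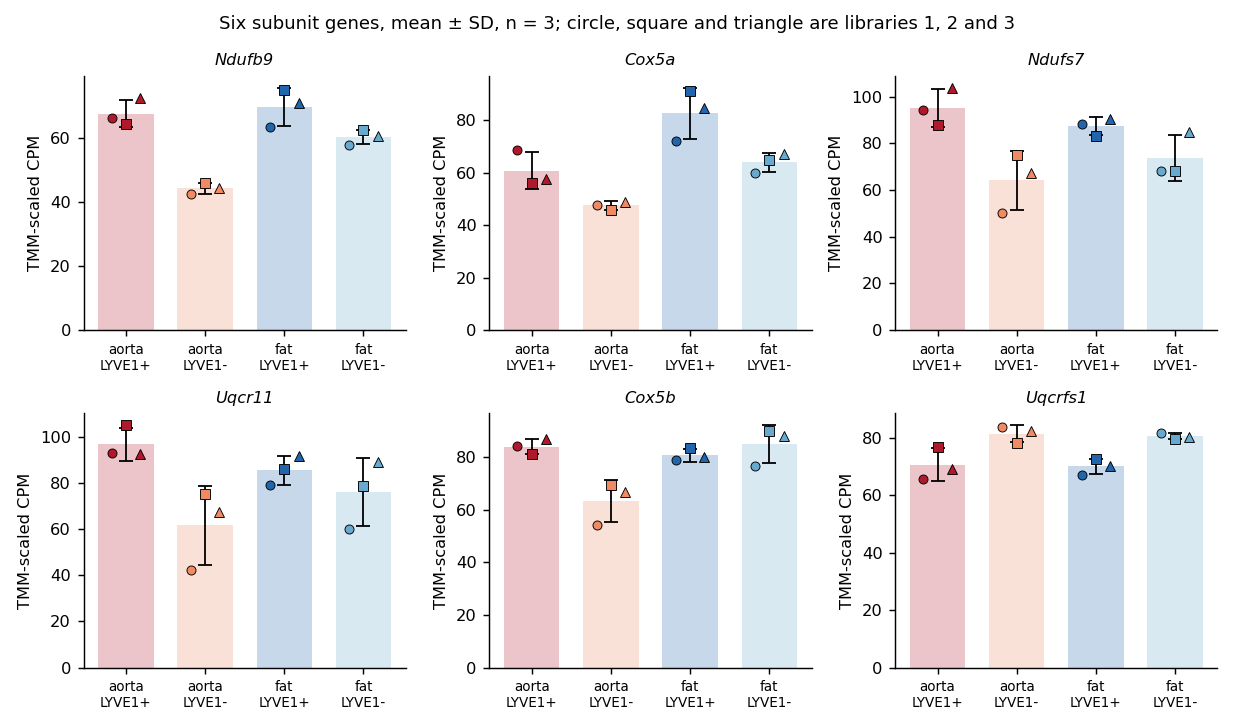
Levels (TMM-scaled CPM, y axes from 0) of 6 members in the 4 groups (x axes). Circles, squares and triangles are libraries 1, 2 and 3, bars are means and whiskers the SD of 3 libraries. Ndufb9 is apart in both tissues, Cox5a is highest in fat LYVE1+, the means of Ndufs7, Uqcr11 and Cox5b are lowest in aorta LYVE1-, and Uqcrfs1 is lower in LYVE1+ than in LYVE1- in both tissues.

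In fat, the same comparison showed a smaller difference that overlapped between libraries. The members summed to 6494, 6772 and 6829 CPM in the LYVE1+ libraries and to 5947, 6589 and 6861 CPM in the LYVE1- libraries, a ratio of 1.04, or 1.01 without both fat libraries 1. Fitted values were above 0 for 58 of 79 members, with a median of 0.09, against 50.4% of all genes. By complex, 31 of 36 members of complex I were above 0 (median 0.12), but only 8 of 17 of complex V (median -0.03). Without both fat libraries 1 the members above 0 were 44 and their median was 0.02. Groups did not overlap for 10 members that were higher and 3 that were lower, or 16.5%, against 18.9% of all genes.

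No member was called in fat by edgeR, against 3.93% of all genes, nor by DESeq2, against 7.07%, and 3 members (Cox5a, Ndufs6 and Ndufs3) had an unadjusted p below 0.05, against 15.8%. These shares lie below those of all genes. Cox5a, a nuclear-encoded subunit around the catalytic core of complex IV, stood at 71.9, 90.9 and 84.7 CPM in fat LYVE1+ and at 59.8, 64.7 and 67.01 CPM in fat LYVE1- libraries (log2 fold change 0.37, SE 0.13, adjusted p = 0.177 by edgeR). Ndufs6, an accessory complex I subunit, stood at 41.4, 42.9 and 39.4 CPM against 31.8, 30.1 and 34.5 CPM (0.36, adjusted p = 0.194 by edgeR). Ndufs3, a core complex I subunit, stood at 36.4, 45.6 and 44.4 CPM against 30.0, 27.7 and 36.4 CPM (0.43, adjusted p = 0.21 by edgeR). The LYVE1+ values lay above the LYVE1- values in all 3 genes, by the least margin in Ndufs3. Cox5a, Ndufs6 and Ndufs3 each overlap a gene on the other strand (Gm26631, Mrpl36 and Kbtbd4), and reads of the pairs cannot be told apart without strand.

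Averaged over both tissues, 2 members were called higher in LYVE1+ cells by edgeR, Ndufb9 and Cox5a, or 2.53% of those tested, against 6.34% of all genes. DESeq2 called 8, all higher, against 10.8% of all genes, and 30 members had an unadjusted p below 0.05 by edgeR (29 higher, 1 lower), against 20.8%. A block on the replicate number within tissue paired same-numbered libraries in fat and also in the aorta, where their deviations did not go together. With it, 5 members were called (Cox5a, Ndufb9, Ndufs7, Ndufv1 and Uqcr11), against 10.3% of all genes. The fit without both fat libraries 1 called 3 (Cox5a, Ndufb9 and Ndufv1), against 11.2%. Fitted values were above 0 for 74 members with a median of 0.20. Ndufb9 had an average log2 fold change of 0.41 (SE 0.085) with an adjusted p of 0.0126 by edgeR, and was called under all 19 alternatives, with adjusted p-values from 0.000176 to 0.0447. Cox5a in the aorta stood at 68.7, 56.1 and 57.5 CPM against 47.6, 45.8 and 48.9 CPM, again without overlap. Its average was 0.36 (SE 0.095), with an adjusted p of 0.0377 by edgeR. That call ended in 10 of 12 fits that left out 1 library (0.0157 to 0.111 over the 12), with no filter (0.0981) and with the prefix in the model (0.215).

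The difference between the tissues in the LYVE1 comparison was tested directly. No member was called by edgeR, against 0.155% of all genes, nor by DESeq2, against 0.703%, and 5 members (6.33%) had an unadjusted p below 0.05, against 6.06%. The fitted difference, aorta minus fat, was above 0 for 72 of 79 members with a median of 0.20, while over all genes 47.9% were above 0. Without both fat libraries 1 the median was 0.25 and again no member was called, against 0.605% of all genes. The median was 0.15 with the prefix in the model (58 members above 0) and 0.14 without aorta LYVE1- library 1 (66 above 0). The smallest p-values were those of Cox5b, a zinc-binding subunit of complex IV (0.48, SE 0.18, adjusted p = 0.723 by edgeR), Atp5o, the stalk subunit that confers sensitivity to oligomycin (0.48, SE 0.20, adjusted p = 0.78), and Ndufb9 (0.40, SE 0.17, adjusted p = 0.798). Cox5b stood at 84.1, 81.1 and 86.8 CPM in aorta LYVE1+, 54.3, 69.3 and 66.8 CPM in aorta LYVE1-, 78.8, 83.6 and 79.9 CPM in fat LYVE1+, and 76.67, 89.97 and 87.99 CPM in fat LYVE1- libraries. It was thus low in the aorta LYVE1- libraries and similar among the other 9. Atp5o stood at 98.5 to 100.7 CPM in aorta LYVE1+, 70.2 to 86.0 CPM in aorta LYVE1-, 87.4 to 104.4 CPM in fat LYVE1+ and 85.6 to 112.3 CPM in fat LYVE1-. Its aortic groups were apart and its fat groups overlapped. The annotation lists another Atp5o entry over it on the same strand, and D430001F17Rik and Gm15976 on the other strand. Reads of shared exons thus cannot be assigned with certainty.

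**Figure D4:**
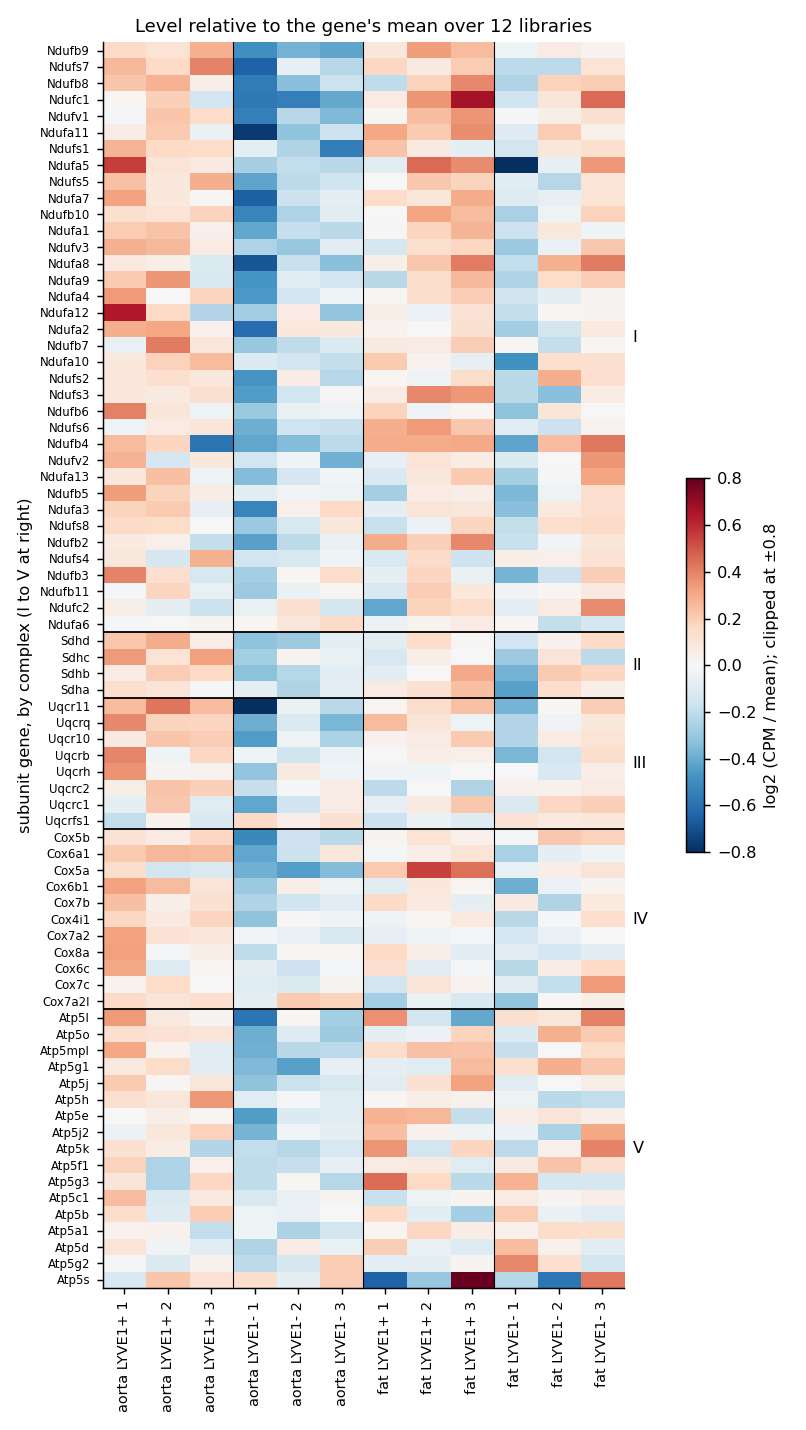
Level of 76 members (rows, by complex and within it by the aortic difference) in 12 libraries (columns), as log2 of CPM over the gene's mean (colour, clipped at 0.8 either way). Cox6a2, Cox6b2, Cox7a1 and the 5 untested members are left out for low counts. Aorta LYVE1- library 1 is lowest for many members, and Uqcrfs1 and the complex V members in the lowest rows do not follow the rest.

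Between tissues, LYVE1- cells of the aorta had lower values than those of fat, and LYVE1+ cells were about level. The aorta LYVE1- libraries enter this comparison and the aortic one above, so the results are not independent. All aorta LYVE1- libraries carry the RHH prefix and all fat libraries RMM, so prefix and tissue cannot be told apart within LYVE1- cells. In LYVE1- cells, 67 of 79 members had fitted values below 0 (aorta over fat), with a median of -0.17, and the ratio of summed levels was 0.897 with overlap. That ratio was 0.863 without both fat libraries 1, and the remaining libraries were apart. The libraries did not overlap for 16 members, all lower in the aorta (20.3%), against 21.1% of all genes. No member was called by edgeR, against 2.48% of all genes, 2 were called lower by DESeq2 (Cox5b and Ndufb9), against 5.96%, and 11 had an unadjusted p below 0.05, against 15.2%. Without both fat libraries 1, 6 members were called lower (Atp5o, Cox5b, Ndufa8, Ndufb8, Ndufb9 and Ndufc1), against 7.25% of all genes, and the median was -0.24. With the prefix in the model the median was -0.07, 29 members were above 0 and none was called, against 0.0492% of all genes. The median was also nearer 0 without aorta LYVE1- library 1 (-0.10) and without fat LYVE1- library 3 (-0.11).

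The smallest p-values in LYVE1- cells were those of Ndufb9 (-0.45, SE 0.12, adjusted p = 0.0759 by edgeR), Cox5b (-0.42, SE 0.13, adjusted p = 0.115) and Ndufc1 (-0.66, SE 0.20, adjusted p = 0.117), an accessory complex I subunit. Ndufc1 stood at 15.8, 16.0 and 17.6 CPM in the aorta and at 20.96, 24.99 and 32.01 CPM in fat. The aortic values were close together and all below those of fat. Adipocyte markers differed between the tissues as well: the 8 genes, none at 0 in all libraries, summed to 10.9 to 29.2 CPM in aortic and 66.0 to 294 CPM in fat libraries. Fibroblast markers (6 genes) went the other way. Their sums for LYVE1- cells were 1302 to 2244 (aorta) against 511 to 992 CPM (fat). So did 10 pericyte and smooth muscle markers, with 43.8 to 99.1 against 8.83 to 17.5 CPM. Both lists were also higher without overlap in aortic LYVE1+ cells. The part of all these markers in the results was not tested.

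In LYVE1+ cells, 49 of 79 members were above 0 (aorta over fat) with a median of 0.06, and the ratio of summed levels was 1.03 with overlap. Without fat LYVE1+ library 1 the members above 0 were 44 and their median was 0.02, and without both fat libraries 1 the ratio was 1.02. The libraries did not overlap for 10 members that were higher and 4 that were lower in the aorta (17.7%), against 20.6% of all genes. No member was called by edgeR, against 3% of all genes, 1 was called lower by DESeq2 (Cox5a), against 6.49%, and 3 had an unadjusted p below 0.05, against 15.3%. Without both fat libraries 1, edgeR also called Cox5a lower, against 6.32% of all genes. Cox5a had a log2 fold change of -0.44 (SE 0.13, adjusted p = 0.109 by edgeR, 0.0302 to 0.309 over the alternatives), with the aortic values given above all below those of fat. Cox6b2, the testis isoform, stood at 2.72, 1.95 and 2.56 CPM in the aorta and at 0.767, 0.779 and 0.906 CPM in fat, from 4 to 54 counts per library (log2 fold change 1.54, SE 0.56, adjusted p = 0.186 by edgeR). Uqcrc2, a core protein of complex III, stood at 72.7, 82.6 and 80.4 CPM against 61.0, 70.3 and 59.6 CPM (0.30, SE 0.12, adjusted p = 0.251 by edgeR). Both genes were higher in the aorta without overlap, and Uqcrc2 overlaps Pdzd9 on the other strand.

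The subunits encoded by the mitochondrial genome work in the same complexes and were set beside the nuclear ones. The 13 genes summed to 11749 to 15608 CPM in the 6 aortic libraries, to 21952 to 26032 CPM in fat libraries 2 and 3 of either sort, and to 62107 and 84336 CPM in fat libraries 1. Aortic and fat libraries did not overlap, with ratios of aorta over fat of 0.375 in LYVE1+ and 0.312 in LYVE1- cells, or 0.602 and 0.545 without both fat libraries 1. All 13 had fitted values below 0 in both tissue comparisons, with medians of -1.50 and -1.86. Only mt-Cytb, the cytochrome b of complex III, and mt-Atp6, a proton channel subunit of complex V, were called by edgeR in LYVE1- cells, against 2.48% of all genes, where DESeq2 called 5, against 5.96%. None was called by edgeR in LYVE1+ cells, against 3% of all genes, where DESeq2 called 3, against 6.49%, and 12 had an unadjusted p below 0.05, against 15.3%. Leaving out both fat libraries 1, the medians were -0.77 in LYVE1+ and -0.93 in LYVE1- cells, with 7 and 8 of the 13 called lower, against 6.32% and 7.25% of all genes. With no filter on low counts 9 were called lower in each, against 3.24% and 2.55%.

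**Figure D5:**
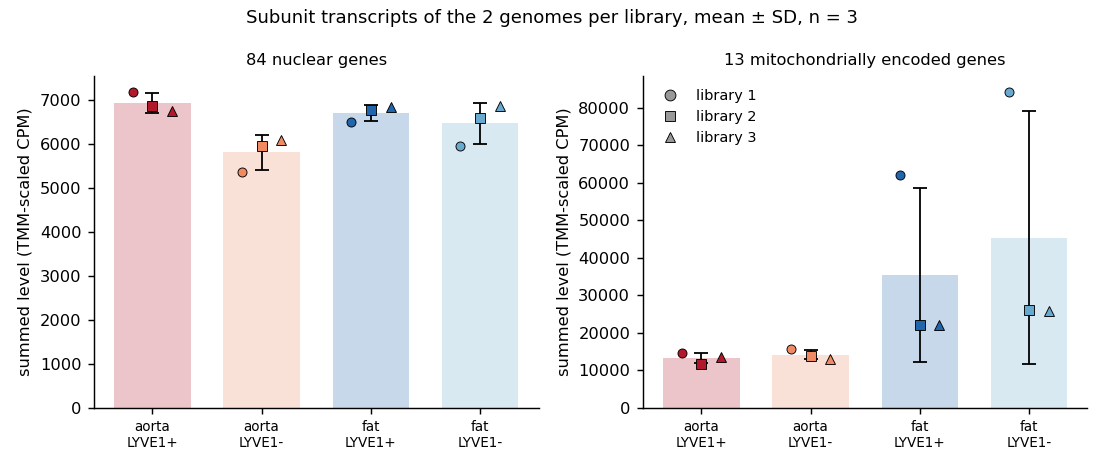
Summed level (TMM-scaled CPM, y axes from 0) of the 84 nuclear members (left) and the 13 mitochondrially encoded subunits (right) in the 4 groups (x axes). Circles, squares and triangles are libraries 1, 2 and 3, bars are means and whiskers the SD of 3 libraries. The fat libraries 1 are far above the rest at right and are not above the other fat libraries at left.

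mt-Cytb stood at 3267, 3035 and 2645 CPM in aorta LYVE1- and at 20784, 6939 and 7429 CPM in fat LYVE1- libraries, with fat library 1 far above the rest (log2 fold change -1.97, SE 0.45, adjusted p = 0.0398 by edgeR, 8.07e-05 to 0.779 over the alternatives). mt-Atp6 stood at 3.4, 3.8 and 4.4 CPM against 30.4, 8.9 and 9.7 CPM (-2.07, SE 0.50, adjusted p = 0.0482 by edgeR, 0.00209 to 0.801). mt-Atp6 was thus counted far below mt-Cytb, and how multiply mapped reads were treated is not given. Both calls ended in most of the 12 fits that left out 1 library, 8 of 12 for mt-Cytb and 9 of 12 for mt-Atp6. Both also ended with the prefix in the model. That of mt-Atp6 ended as well with RLE factors, with only the 2 groups compared and with the replicate block. Between the sorts, no mitochondrially encoded subunit was called by edgeR or DESeq2, and none had an unadjusted p below 0.05, in the aorta (4 of 13 above 0, median -0.10) or in fat (0 of 13 above 0, median -0.31). Of all genes, edgeR called 0.542% in the aorta and 3.93% in fat, and DESeq2 called 2.53% and 7.07%. An unadjusted p below 0.05 by edgeR was found for 11.3% and 15.8% of all genes. With the replicate block, edgeR called mt-Cytb lower in LYVE1+ cells of fat, against 6.44% of all genes, and mt-Cytb and mt-Nd4 lower in the average over tissues, against 10.3%. The direction in fat rested on single libraries: the median was 0.57 with all 13 above 0 without fat LYVE1- library 1, -1.04 without fat LYVE1+ library 1, and -0.15 with 2 above 0 without both. The ratio of nuclear to mitochondrially encoded subunit counts was 0.491, 0.583 and 0.504 in aorta LYVE1+, 0.343, 0.433 and 0.465 in aorta LYVE1-, 0.105, 0.306 and 0.311 in fat LYVE1+, and 0.0705, 0.253 and 0.265 in fat LYVE1- libraries. It was thus higher in every aortic library than in every fat library, and higher in LYVE1+ than in LYVE1- cells within the aorta.

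Members varied together across the 12 libraries. The correlation of a member's log2 CPM with the mean of the other members had a median of 0.685, from -0.655 (Uqcrfs1) to 0.946 (Uqcr11), and was above 0 for 73 of 79; without both fat libraries 1 the median was 0.735. The closest member of each complex was Ndufb10 (0.938) in complex I, Sdhd (0.884) in complex II, Uqcr11 in complex III, Cox4i1 (0.904) in complex IV and Atp5mpl (0.891) in complex V. The lowest after Uqcrfs1 were Ndufa6 (-0.276) and Atp5b (-0.212). These values describe libraries that share their depth and scaling. Atp5b stood at 607.6, 513.8 and 631.5 CPM in aorta LYVE1+, 536.7, 531.1 and 550.5 CPM in aorta LYVE1-, 614.9, 520.6 and 458.9 CPM in fat LYVE1+, and 634.6, 532.7 and 518.5 CPM in fat LYVE1- libraries, with overlap in both tissues.

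Other genes of mitochondrial metabolism were followed as 9 lists, with 154 of 162 genes tested. In the aorta, 113 of the 154 were above 0 in LYVE1+ cells, with a median of 0.16. Assembly factors of complex I (14 of 15 above 0, median 0.21) and of complexes II to V (24 of 31, 0.20) were near the subunits. So were electron carriers and ubiquinone synthesis (14 of 15, 0.20), the TCA cycle with pyruvate dehydrogenase (17 of 19, 0.17) and cristae and supercomplex factors (10 of 12, 0.22). Import and carrier proteins (15 of 20, 0.12) and uncoupling and peroxide removal (7 of 11, 0.22) followed. Glycolysis (8 of 18, -0.03) and regulators of mitochondrial biogenesis (4 of 13, -0.19) lay at or below 0. No gene of these lists was called in the aorta by edgeR, against 0.542% of all genes. DESeq2 called 2 (Coa3 and Uqcc3, 1.30%), against 2.53% of all genes, and 18 (11.69%) had an unadjusted p below 0.05, against 11.3%. These shares are near or below those of all genes. The fit without both fat libraries 1 called 3 (Coa3, Uqcc3 and Slc2a1), against 4.01%.

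In fat, 82 of the 154 were above 0 in LYVE1+ cells, with a median of 0.02, and edgeR called 1 (0.649%), against 3.93% of all genes, or 4 (Idh2, Myc, Pfkp and Slc2a1) without both fat libraries 1, against 6.32%. The 1 called was Idh2, the mitochondrial isocitrate dehydrogenase that uses NADP, at 313, 390 and 373 CPM in LYVE1+ and 138, 230 and 217 CPM in LYVE1- libraries (log2 fold change 0.88, SE 0.20, adjusted p = 0.0256, 0.000336 to 0.105 over the alternatives). In the average over tissues, edgeR called 4 of the 154 (2.60%), a smaller share than the 6.34% of all genes, and 11 without both fat libraries 1 (7.14%), against 11.2%. The 4 were all higher in LYVE1+ cells: Idh2 (0.68, adjusted p = 0.012), Uqcc3, an assembly factor of complex III (0.63, adjusted p = 0.0131), Cox14, an assembly factor of complex IV (0.47, adjusted p = 0.0247), and Gpx4, which reduces lipid peroxides (0.46, adjusted p = 0.0241). Uqcc3 stood at 22.7, 20.0 and 18.8 CPM against 11.4, 12.9 and 11.6 CPM in the aorta and at 19.4, 18.1 and 22.5 CPM against 12.4, 15.7 and 14.9 CPM in fat. It was apart in both tissues. Cox14 and Gpx4 lost their call in 7 and 5 of the 12 fits that left out 1 library, and all 4 calls ended with the prefix in the model.

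Between tissues, Hk2, the hexokinase that opens glycolysis in many tissues, was the listed gene called in both comparisons, among 3 called in each (1.95% of the 154, against 3% and 2.48% of all genes). Leaving out both fat libraries 1, 8 and 11 listed genes were called, against 6.32% and 7.25%, and Gpx1, Opa1 and Slc2a1 were also among those called in both. It stood at 143, 133 and 146 CPM in aorta LYVE1+ against 46.4, 29.7 and 29.1 CPM in fat LYVE1+, and at 194, 128 and 126 CPM in aorta LYVE1- against 73.2, 32.0 and 42.8 CPM in fat LYVE1- libraries. Every aortic value lay above every fat value. The log2 fold changes were 2.02 (SE 0.29, adjusted p = 0.00287 by edgeR, 3.05e-09 to 0.0216 over the alternatives) and 1.60 (SE 0.28, adjusted p = 0.0115, 2.81e-06 to 0.703), and the call in LYVE1- cells ended with the prefix in the model and in 1 of 12 fits that left out 1 library. In LYVE1+ cells Suclg2, a subunit of succinyl-CoA ligase, was called higher in the aorta (0.70, adjusted p = 0.0361 by edgeR) and Opa1, which fuses inner membranes, lower (-0.56, adjusted p = 0.0418). In LYVE1- cells the glycolytic enolase Eno1 (-0.63, adjusted p = 0.0269 by edgeR) and the peroxidase Gpx1 (-0.70, adjusted p = 0.0354) were called lower in the aorta. Each of these 4 calls ended in 5 to 10 of the 12 fits that left out 1 library.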

How the data were processed

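The deposited table holds raw counts per gene, whole numbers for 46517 genes in 12 libraries. The authors made these counts with STAR 2.5.2b and featureCounts 1.5.0 on GRCm38 and used edgeR 3.14.0, per the submitters' processing notes. Strand setting, annotation release, filters and treatment of multiply mapped reads are not given in the sources used here. For 26 of the 84 members, which overlap a gene on the other strand, the counts of both genes cannot be told apart. Symbols, coordinates and lengths came from GENCODE M21 by Ensembl identifier, which matched 46005 genes. The deposited log2 CPM table was not used.

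Counts were tested with edgeR 4.0.16 (quasi-likelihood, TMM factors, filterByExpr by group) in R 4.3.3. All 12 libraries entered 1 fit with a mean per group and 8 residual degrees of freedom, and Benjamini-Hochberg adjustment ran over all 14216 genes tested in each of 6 comparisons, two-sided, with calls at an adjusted p below 0.05. The script was tested on simulated counts. SE is the size of the log2 fold change divided by the square root of F. Levels are TMM-scaled CPM, marker sums are CPM on plain totals, and correlations used log2 CPM with a prior count of 2. Wilson intervals cover counting of windows only. Libraries of a group differed by more than sampling noise (chi-square per gene 7.63 to 97.9).

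The members and lists were chosen with earlier results of these data known. Named were called members, otherwise the 3 with the smallest adjusted p in a comparison, the 2 highest of each complex per length, the isoform pairs, the closest member of each complex, and called genes of the other lists. Further genes were named after their values were seen. Same-numbered fat libraries deviated together (correlations of deviations 0.486, 0.279 and 0.184), and those of the aorta did not (-0.0441, -0.0767 and -0.17). The main fit paired no libraries, and only the replicate block used the labels' numbers. Fat libraries 2 and 3 with different numbers correlated as much (0.192 and 0.225), so that beyond library 1 the numbers did not tell pairs apart. Alternatives were DESeq2 1.42.0, RLE factors, totals without mitochondrial and hemoglobin genes, no filter and only the groups compared. Others were the replicate block, the title prefix and leaving out libraries. Only the aorta LYVE1+ group held both prefixes, so the prefix term rests on its library 3 against its libraries 1 and 2. For the sort comparisons the block paired same-numbered libraries within each tissue, the aorta included. For the tissue comparisons it paired same-numbered libraries of aorta and fat within each sort, and whether these went together was not tested.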

Additional observations from a re-analysis of the deposited data

How the results depend on the processing

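Members called by edgeR varied with the setting, and so did the share of all genes called. In the aortic sort comparison, with 1 called, DESeq2 called 4, no filter 0, the prefix in the model 0, and the fit without both fat libraries 1 called 3. The shares of all genes called in these fits, in the same order, were 0.542%, 2.53%, 1.33%, 0.0141% and 4.01%. In the average over tissues, with 2 called, DESeq2 called 8, no filter 1, the replicate block 5 and the prefix 1. The shares of all genes there were 6.34%, 10.8%, 4.91%, 10.3% and 1.96%. In LYVE1+ cells between tissues, with 0 called, DESeq2 called 1 and the fit without both fat libraries 1 called 1, against 3%, 6.49% and 6.32% of all genes. In LYVE1- cells between tissues, with 0 called, DESeq2 called 2 and the fit without both fat libraries 1 called 6, against 2.48%, 5.96% and 7.25%. Leaving out 1 library gave 0 to 1 called in the aortic comparison, against 0.141% to 1.498% of all genes. It gave 1 to 6 in the average, against 3.57% to 11.8% of all genes. In LYVE1- cells between tissues it gave 0 to 1, against 0.732% to 3.81% of all genes. The highest count in the average, 6, came without fat LYVE1+ library 1, against 11.8% of all genes. The replicate block changed no other count of called members. The members' median log2 fold change kept its sign in all 6 comparisons under every alternative. It ranged from 0.25 to 0.34 in the aorta, 0.02 to 0.16 in fat and 0.14 to 0.23 in the average. For the LYVE1 difference, aorta minus fat, the range was 0.14 to 0.29. Between tissues it was 0.02 to 0.08 in LYVE1+ cells and -0.24 to -0.07 in LYVE1- cells. In fat the median was near 0 without both fat libraries 1. The cause of these changes was not tested. The prefix of the titles, the source of the replicates within a group, and reads shared with overlapping genes limit the sort and tissue comparisons, and 3 libraries a group limit their precision.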
